A study of Mus musculus with 49 samples.

Results

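The 7 livers of TRE-MET mice fell into 2 sets that did not overlap in Dbp, a transcription factor gene under circadian control, and these sets are described here over 21517 genes. The livers were chosen by their Dbp value: at its only probe set, log2 intensity was below 0 in livers 1, 2, 3 and 5 and above 0 in livers 4, 6 and 7. The nearest livers on either side of 0 were liver 3 at −1.75 and liver 6 at 1.82. The first set is called the low-Dbp TRE-MET livers (n = 4) and the second the high-Dbp TRE-MET livers (n = 3), out of 49 samples in the series. The 7 livers of the LAP-tTA strain, which lay between both sets in Dbp, served as the common point of comparison. Because the sets were selected on these arrays, differences between them, and between either set and LAP-tTA, are given as a description without a test. In the text a gene is called apart when no value of one set overlaps the other and the means differ at least 2-fold, which is 1 on the log2 scale.

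All mice were FVB. TRE-MET mice were sampled at 6 weeks. By the methods of the study they carried 1 copy of LAP-tTa, in which a liver-specific promoter drives a tetracycline-controlled transactivator, and 1 copy of Tre-Met, human MET under tetracycline control, whereas their labels name only Tre-c-Met. LAP-tTA mice carried, by the same methods, 2 copies of the transactivator transgene and no Tre-Met, and were sampled at 7 weeks, so that age went with strain. TRE-MET liver 1 is given as 6 weeks in its title and as 14 weeks in its age field. The series also holds samples at 14 weeks. Control livers are titled FVB-WT, with no transgene named. Livers labelled distant and adjacent, and tumors, are titled LAP-tTA-Tre-met, which names both transgenes. Liver RNA was hybridised to a custom Affymetrix array, and RMA was applied by the authors to the whole set of arrays. Whole tissue was measured, so a change in the number of cells of a type and a change of RNA per cell cannot be told apart.

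The circadian clock of the liver is a feedback loop. CLOCK and BMAL1 (gene Arntl) bind E-boxes and activate Per, Cry, Nr1d1, Ciart and Dbp. PER and CRY proteins repress CLOCK and BMAL1, and the REV-ERB proteins (Nr1d1, Nr1d2) repress Arntl, so that Arntl and Dbp peak at opposite times of day. DBP, TEF and HLF activate output genes through D-boxes, and NFIL3 represses through the same site. The acute phase response is the change in liver secretion that follows injury or infection. Interleukin 6 acts on hepatocytes through STAT3, interleukin 1 and tumor necrosis factor act through NF-kB, and C/EBP factors act with both to raise serum amyloid A, orosomucoids, lipocalin 2 and other plasma proteins. S100A8 and S100A9 are abundant proteins of neutrophils and monocytes.

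The promoters of 5 genes are shown because they carry matches to the elements of these pathways at genes that were apart. Each is the run of 250 bases before the RefSeq start (GRCm38.p6), printed 5′ to 3′ on the strand of the gene, with the matches in capitals. Saa1 (chr7:46742981-46743230, minus strand) and Saa2 (chr7:46751583-46751832, plus strand) encode serum amyloid A, and Lcn2 (chr2:32387740-32387989, minus strand) encodes lipocalin 2. In these 3 promoters the capitals mark a C/EBP element.
Saa1: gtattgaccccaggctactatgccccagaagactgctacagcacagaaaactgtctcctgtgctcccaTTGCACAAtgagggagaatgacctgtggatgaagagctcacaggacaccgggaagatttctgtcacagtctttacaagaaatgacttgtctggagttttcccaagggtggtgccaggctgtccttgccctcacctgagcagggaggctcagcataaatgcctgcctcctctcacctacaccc
Saa2: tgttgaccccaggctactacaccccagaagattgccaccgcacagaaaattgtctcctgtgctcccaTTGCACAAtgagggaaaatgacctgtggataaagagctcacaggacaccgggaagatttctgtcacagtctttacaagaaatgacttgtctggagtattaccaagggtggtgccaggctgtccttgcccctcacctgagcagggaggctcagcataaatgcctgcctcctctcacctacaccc
Lcn2: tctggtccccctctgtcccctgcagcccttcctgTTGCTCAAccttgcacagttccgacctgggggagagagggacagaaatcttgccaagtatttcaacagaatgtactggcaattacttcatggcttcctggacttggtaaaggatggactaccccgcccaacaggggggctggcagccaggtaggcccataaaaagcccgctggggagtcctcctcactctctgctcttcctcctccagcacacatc
In the promoter of Ciart (chr3:95882229-95882478, minus strand), a repressor of the clock, the capitals mark 3 E-boxes. In that of Arntl (chr7:113207215-113207464, plus strand) they mark 2 matches to TNGGTCA, the pattern searched here for the REV-ERB and ROR element. This pattern leaves its second base free, and whether the 2 matches are such elements was not tested.
Ciart: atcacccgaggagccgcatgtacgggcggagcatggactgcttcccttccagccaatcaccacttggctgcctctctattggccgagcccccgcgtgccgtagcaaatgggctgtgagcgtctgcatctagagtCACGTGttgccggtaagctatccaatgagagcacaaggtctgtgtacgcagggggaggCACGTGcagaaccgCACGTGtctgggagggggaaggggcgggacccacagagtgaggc
Arntl: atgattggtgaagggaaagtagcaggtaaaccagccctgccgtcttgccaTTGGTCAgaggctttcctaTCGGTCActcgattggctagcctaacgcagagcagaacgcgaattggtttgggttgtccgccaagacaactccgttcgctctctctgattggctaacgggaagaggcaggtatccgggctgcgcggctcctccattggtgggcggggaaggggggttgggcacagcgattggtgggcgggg

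Motifs were searched on both strands of the same 250 bases in the 16801 genes with a start, among them 190 of the genes apart between the sets. No printed match overlapped another motif. The C/EBP element (TTGCNNAA) was found in 13 of 25 positive acute phase promoters (52.0%), against 10.1% of all promoters. The STAT element (TTCNNNGAA) was found in 8 of them (32.0%), against 7.71%, and the NF-kB element (GGG and TTCC, 3 bases of any kind between them) in 5 (20%), against 5.37%. Among the genes higher in the low-Dbp set, 23 of 121 promoters held the C/EBP element and 13 (10.7%) the NF-kB element, while among the 69 lower ones 5 (7.25%) and 2 (2.90%) did. The E-box (CACGTG) was present in 4 of 14 core clock promoters (28.6%), against 8.03% of all. The loose pattern TNGGTCA, searched for the REV-ERB and ROR element, was present in 3 (21.4%), against 10.3%. Of the core clock genes with an E-box, Per1, Cry1, Ciart and Bhlhe41, only Ciart was apart. Among genes apart, 6 of the 121 higher (4.96%) and 6 of the 69 lower ones (8.70%) held the E-box, no more than about the share of all promoters. The D-box (TTATGTAA) was rare, at 0.857% of all promoters and 3 of the 69 lower ones (4.35%). The 250 bases before the start of Dbp, which are not printed, held 1 STAT match and none of the other elements. A match is a string of letters and not a bound site.

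The arrays of the 7 livers were alike in scale. The median log2 intensity ran from −3.27 to −3.21 in the low-Dbp set, from −3.28 to −3.24 in the high-Dbp set and from −3.32 to −3.20 in LAP-tTA livers. Over all probe sets, low-Dbp livers correlated with each other at 0.9934 to 0.9945 (6 pairs), high-Dbp livers at 0.9935 to 0.9955 (3 pairs), and livers of different sets at 0.9875 to 0.9895 (12 pairs). Low-Dbp livers correlated with LAP-tTA livers at 0.9851 to 0.9879, and high-Dbp livers at 0.9886 to 0.9929. The first principal component of the 7 arrays held 45.1% of the variance and placed the low-Dbp livers at 20.5 to 27.9 and the high-Dbp livers at −33.6 to −31.0. Of 11 measured hepatocyte markers 0 were apart, 2 were higher and 2 lower without overlap, and the largest difference was 0.50 in size. With 0.730% of all genes apart and higher and 0.400% apart and lower, a list this short would hold few in any case. Alb, the gene of serum albumin, read 6.89, 6.85, 6.99 and 6.92 in low-Dbp livers, 7.00, 6.96 and 6.89 in high-Dbp livers, and 6.96 to 7.07 in LAP-tTA livers (median 7.01). All 14 livers read Eif2s3y, a Y-linked gene, at 0.39 to 0.91 and Xist at −5.28 to −4.69, so sex did not go with the sets. Met, at its brighter probe set, read 2.47, 2.54, 2.46 and 2.49 in low-Dbp livers, 2.12, 1.62 and 1.86 in high-Dbp livers, and 1.67 to 2.01 in LAP-tTA livers (median 1.85), with no overlap between the sets, and whether it reads the human transcript is not known.

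Dbp itself set the split, and its values only describe it. Dbp read −1.97, −3.16, −1.75 and −3.17 in low-Dbp livers, 2.08, 1.82 and 2.27 in high-Dbp livers, and 0.83 to 1.29 in LAP-tTA livers (median 1.11). The low-Dbp mean was −2.51 ± 0.76 (SD, n = 4), the high-Dbp mean 2.06 ± 0.23 (SD, n = 3) and the LAP-tTA mean 1.10 ± 0.15 (SD, n = 7), and the sets differed 23.7-fold in intensity. Both sets lay beyond LAP-tTA, with differences of −3.61 for the low-Dbp and 0.96 for the high-Dbp set. Saa1, serum amyloid A, which replaces apolipoprotein A-I on lipoprotein particles in the acute phase, read 6.58, 6.49, 6.5 and 6.58 in low-Dbp livers, 5.20, 3.52 and 3.83 in high-Dbp livers, and 1.82 to 5.64 in LAP-tTA livers (median 3.33). Its low-Dbp livers were nearly equal, at 6.54 ± 0.05 (SD, n = 4), and its high-Dbp livers averaged 4.18 ± 0.89 (SD, n = 3) and lay within the LAP-tTA range. S100a8 read 0.74, 0.90, 1.89 and 1.16 in low-Dbp livers, −2.45, −3.38 and −2.59 in high-Dbp livers, and −3.10 to −2.18 in LAP-tTA livers (median −2.91). All 4 low-Dbp livers lay above all other livers of both strains, and the difference between the sets was 3.98, or 15.8-fold in intensity. The values give no background level, so a fold against a dim set is a ratio of intensities and not of RNA amounts. The plot of 8 genes by liver shows how evenly the livers of each set sat.

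**Figure D1:**
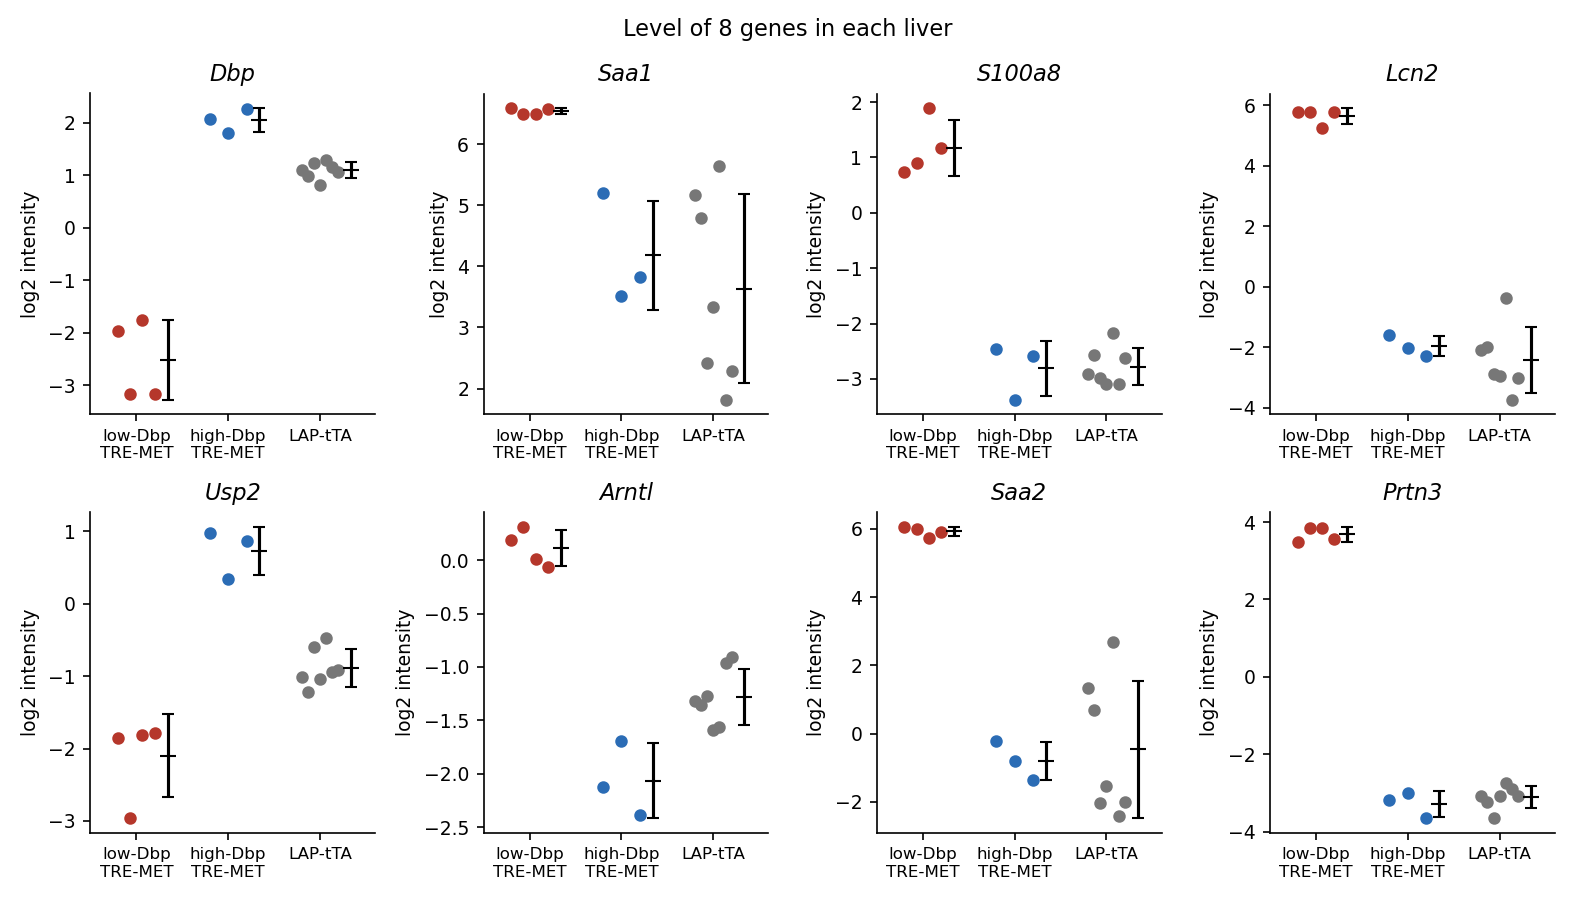
Log2 intensity of 8 genes in each liver (vertical axes) for low-Dbp TRE-MET (n = 4), high-Dbp TRE-MET (n = 3) and LAP-tTA livers (n = 7); points are livers, and the bar beside them is the mean with the SD. Low-Dbp livers lie below the other 2 groups in Dbp and Usp2, and above them in Saa1, S100a8, Lcn2, Arntl, Saa2 and Prtn3.

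Between the sets 157 genes (0.730% of 21517) were apart and higher in low-Dbp livers, and 86 (0.400%) were apart and lower. With no overlap but at any fold, 2377 genes (11%) were higher and 2182 (10.1%) lower, and the counts of list members below are to be read beside these shares. The 12 highest named genes by the difference of means were Lcn2, Prtn3, Saa2, Orm2, Saa3, Crybb3, Cxcl1, Mt2, S100a8, Dnajc12, Orm3 and A2m. Several of them were acute phase genes, and S100a8 and Prtn3 are expressed by neutrophils. Other neutrophil granule genes, Mpo, Camp and Ltf, overlapped between the sets. Lcn2, which binds bacterial siderophores, read 5.78, 5.77, 5.24 and 5.77 in low-Dbp livers, −1.60, −2.01 and −2.27 in high-Dbp livers, and −3.73 to −0.36 in LAP-tTA livers (median −2.88), a difference of 7.60 between the sets. Prtn3, proteinase 3 of neutrophil granules, read 3.49, 3.85, 3.86 and 3.55 in low-Dbp livers, −3.18, −3.01 and −3.65 in high-Dbp livers, and −3.64 to −2.75 in LAP-tTA livers (median −3.08), with high-Dbp and LAP-tTA livers overlapping. Crybb3, a lens crystallin gene, read 3.12, 3.34, 2.46 and 2.45 in low-Dbp livers, −2.09, −2.47 and −2.0 in high-Dbp livers, and −2.57 to −2.05 in LAP-tTA livers (median −2.35), and Dnajc12, a co-chaperone gene of the aromatic amino acid hydroxylases, was 3.59 higher.

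The 12 lowest were Ces2, Dbp, Ugt2b38, 9130409I23Rik, Inmt, Gsta2, Usp2, Ugt2b37, Etnppl, Cyp2a4, Cyp2a5 and Noct. Carboxylesterase, glucuronosyltransferase, glutathione transferase and P450 genes, whose enzymes clear drugs and steroids, made up 6 of them. Ces2, a carboxylesterase under the symbol of the array annotation, read −2.43, −2.28, −2.13 and −2.12 in low-Dbp livers, 2.27, 2.27 and 2.50 in high-Dbp livers, and 2.48 to 2.96 in LAP-tTA livers (median 2.69), and its high-Dbp and LAP-tTA values met at the edges. Inmt, an indolethylamine N-methyltransferase, read 1.52, 0.99, 2.31 and 1.44 in low-Dbp livers, 4.11, 4.92 and 5.06 in high-Dbp livers, and 4.71 to 5.23 in LAP-tTA livers (median 4.99). Ugt2b38, a glucuronosyltransferase, read −1.03, −1.25, −0.94 and −1.18 in low-Dbp livers, 2.89, 2.28 and 2.37 in high-Dbp livers, and −1.21 to −0.16 in LAP-tTA livers (median −0.69). There the low-Dbp livers overlapped LAP-tTA and the high-Dbp livers stood above both, and Ugt2b37 showed the same arrangement, with differences of −2.72 between the sets and 2.78 between high-Dbp and LAP-tTA livers. Ugt2b37 and Ugt2b38 are close paralogs, as are Cyp2a4 and Cyp2a5, Saa1 and Saa2, Orm1 to Orm3 and Mt1 and Mt2, and how far their probe sets read each other was not tested.

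Set against LAP-tTA, the low-Dbp livers had 210 genes apart and higher (0.976%) and 163 apart and lower (0.758%), and the high-Dbp livers 88 (0.409%) and 88 (0.409%). The same 7 LAP-tTA livers enter both counts. Of the 243 genes apart between the sets, 139 lay beyond all LAP-tTA livers only in the low-Dbp set, 103 of them higher and 36 lower than in the high-Dbp set. At 22 genes only the high-Dbp set lay beyond LAP-tTA, at 33 both sets did on the same side, and at 12 neither did. At 37 genes the sets lay beyond LAP-tTA on opposite sides. These included Dbp, Usp2, Tef, Nr1d2, Gys2, Arntl, Cdkn1a, Cxcl1, Lbp and Apcs, that is, genes of the clock and of the acute phase alike. The plot of both sets against LAP-tTA shows the 5 arrangements.

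**Figure D2:**
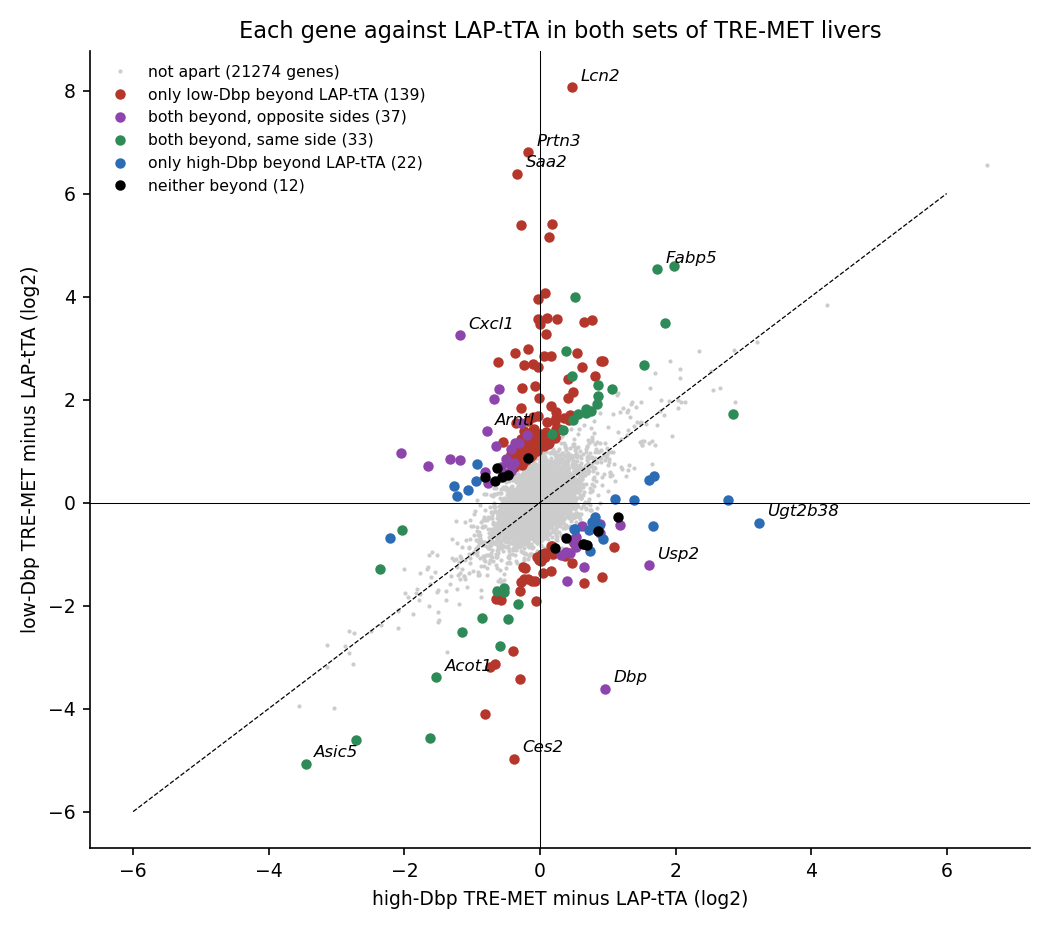
Each point is a gene, with the mean of high-Dbp livers minus the LAP-tTA mean on the horizontal axis and the mean of low-Dbp livers minus the LAP-tTA mean on the vertical axis (both log2). Colours give the 243 genes apart between the sets by whether a set lies beyond all 7 LAP-tTA livers, grey points are the genes that were not apart, and the dashed line marks equal differences. Most coloured points stretch along the vertical axis, at 139 genes where only the low-Dbp set lies beyond LAP-tTA.

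In the core clock, 1 of 17 measured genes was apart and higher in low-Dbp livers (background 0.730%) and 3 were apart and lower (background 0.400%). The median difference over the list was −0.09, against 0.01 over all genes. Arntl was the higher one and read 0.19, 0.31, 0.01 and −0.06 in low-Dbp livers, −2.12, −1.69 and −2.38 in high-Dbp livers, and −1.59 to −0.91 in LAP-tTA livers (median −1.31). The order was low-Dbp above LAP-tTA above high-Dbp, with no overlap. At its other, dimmer probe set the means were −2.42, −2.40 and −2.42 in low-Dbp, high-Dbp and LAP-tTA livers, so that the difference rests on 1 probe set. Ciart, a repressor of CLOCK and BMAL1 and the gene with 3 E-boxes above, read −3.60, −3.90, −3.67 and −3.83 in low-Dbp livers, −2.20, −1.90 and −1.29 in high-Dbp livers, and −3.30 to −1.93 in LAP-tTA livers (median −2.92). Its high-Dbp livers overlapped the top of the LAP-tTA range.

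The REV-ERB genes were lower in the livers where Dbp was lower. Nr1d2 read 1.51, 1.10, 1.5 and 0.94 in low-Dbp livers, 2.93, 2.46 and 2.66 in high-Dbp livers, and 2.08 to 2.37 in LAP-tTA livers (median 2.22), with the sets on opposite sides of LAP-tTA. Nr1d1 differed by −0.91, just short of 2-fold, and read −0.20, −0.38, −0.31 and −0.57 in low-Dbp livers, 0.64, 0.52 and 0.48 in high-Dbp livers, and −0.19 to 0.34 in LAP-tTA livers (median 0.12). Per2, a repressor of the loop, differed by −1.45 at its brighter probe set and by −0.17 at its other one, where the sets overlapped. Per3, Bhlhe40 and Cry2 were lower without overlap, at differences of −0.83, −0.91 and −0.54. Per1, Cry1, Clock and Npas2 overlapped between the sets, with differences of −0.29, 0.06, 0.08 and 0.09.

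Among the 20 clock output genes, 2 were apart and higher in low-Dbp livers (background 0.730%) and 10 were apart and lower (background 0.400%), with a median of −0.91. Dbp, which set the split, is 1 of the 10, and without it 9 of 19 were apart and lower, with a median of −0.72. Usp2, a deubiquitinase gene with a strong daily rhythm in liver, read −1.85, −2.96, −1.81 and −1.78 in low-Dbp livers, 0.98, 0.34 and 0.86 in high-Dbp livers, and −1.21 to −0.48 in LAP-tTA livers (median −0.94). At its second probe set the difference was −2.17, again with no overlap. Tef, a D-box factor like Dbp, read −0.82, −1.2, −0.69 and −1.09 in low-Dbp livers, 1.0, 0.80 and 1.03 in high-Dbp livers, and 0.19 to 0.43 in LAP-tTA livers (median 0.27), and for both genes low-Dbp livers lay below and high-Dbp livers above LAP-tTA. Hlf, the remaining factor of that family, was lower without overlap, at −0.72. Nfil3, which opposes them at the D-box, read 1.86, 1.84, 1.84 and 2.18 in low-Dbp livers, 0.61, 0.45 and 0.42 in high-Dbp livers, and 0.29 to 0.93 in LAP-tTA livers (median 0.64) and was higher in all 4 low-Dbp livers than in the other 10. Noct, an NADP phosphatase gene, differed by −2.36, Upp2, a uridine phosphorylase gene, by −2.12 and Wee1, a kinase gene that delays mitosis, by −1.69. Gys2, liver glycogen synthase, differed by −1.32 and Nampt, of the NAD salvage pathway, by −1.10. Cdkn1a, the cyclin-dependent kinase inhibitor p21, a target of the clock and of p53, read 1.06, 0.72, 0.90 and 1.45 in low-Dbp livers, −1.88, −1.66 and −1.78 in high-Dbp livers, and −1.38 to −0.87 in LAP-tTA livers (median −1.18). The difference, 2.81, was the largest positive one in the list, and it was 3.89 at the second probe set. In Usp2, Upp2 and Ciart the high-Dbp livers stood more than 2-fold above the LAP-tTA mean, by 1.61, 1.67 and 1.10.

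**Figure D3:**
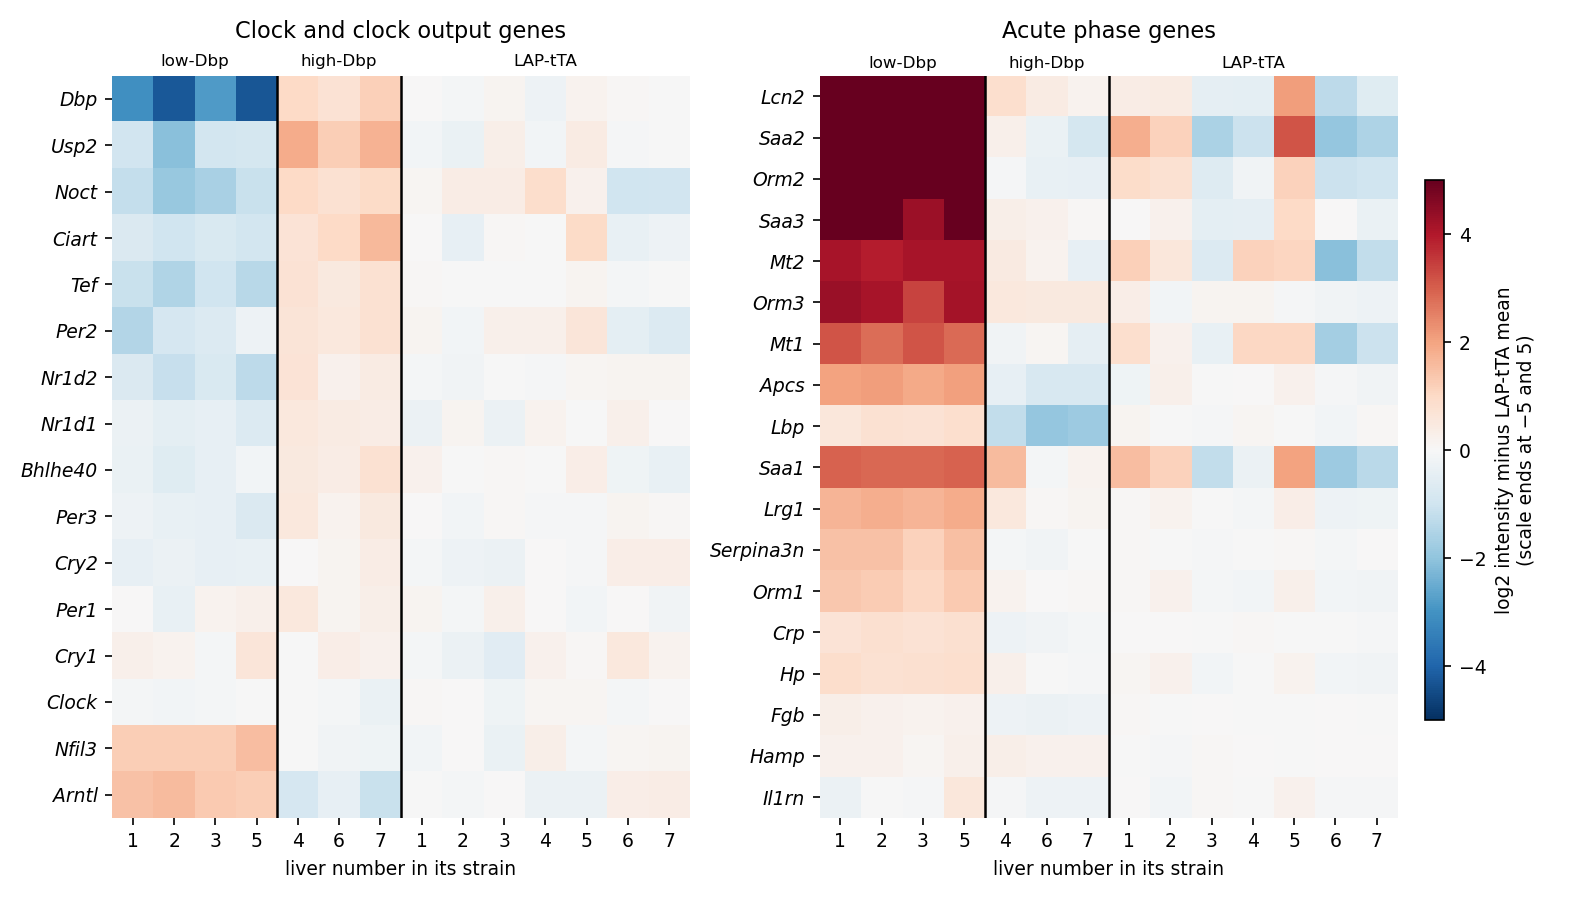
Log2 intensity of each liver minus the LAP-tTA mean for 16 clock and clock output genes (left) and 18 acute phase genes (right); columns are livers, low-Dbp, high-Dbp and LAP-tTA from left to right, red is higher and blue lower than the LAP-tTA mean, and colours end at 5 in either direction. Usp2, Tef, Nr1d2, Arntl and Lbp turn colour between low-Dbp and high-Dbp livers, while the strongest acute phase genes are raised in low-Dbp livers, with Lcn2 8.07 above the LAP-tTA mean.

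Of the 31 positive acute phase genes measured, 18 were apart and higher in low-Dbp livers (background 0.730%) and 0 were apart and lower, with a median difference of 1.16. Their summed linear intensity was 1514 to 1667 in low-Dbp livers, 690.4 to 780.7 in high-Dbp livers and 684.7 to 824.9 in LAP-tTA livers. The serum amyloid genes led. Saa2 read 6.06, 5.99, 5.73 and 5.92 in low-Dbp livers, −0.22, −0.81 and −1.35 in high-Dbp livers, and −2.41 to 2.69 in LAP-tTA livers (median −1.52), and Saa3, which macrophages also express, read 4.47, 4.23, 2.85 and 4.35 in low-Dbp livers, −1.16, −1.22 and −1.38 in high-Dbp livers, and −1.93 to −0.44 in LAP-tTA livers (median −1.40). The high-Dbp livers lay inside the LAP-tTA range in both. In LAP-tTA livers Saa2 spread from −2.41 to 2.69, and Saa1 from 1.82 to 5.64, so these genes varied among animals of that strain as well, below the low-Dbp livers in each case. Saa4, a constitutive member of the family, was 0.71 higher without overlap.

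The orosomucoids, plasma proteins that carry basic drugs, were higher by 5.67 (Orm2), 3.48 (Orm3) and 1.15 (Orm1). Orm2 read 5.68, 5.71, 5.23 and 5.52 in low-Dbp livers, 0.08, −0.23 and −0.25 in high-Dbp livers, and −0.93 to 1.31 in LAP-tTA livers (median −0.03). The metallothioneins, which bind zinc and copper, were higher by 4.0 for Mt2 and 3.15 for Mt1, and Mt2 read 6.07, 5.87, 6.05 and 6.04 in low-Dbp livers, 2.38, 2.12 and 1.52 in high-Dbp livers, and −0.17 to 3.14 in LAP-tTA livers (median 2.50). At a second, dim probe set Mt2 differed by 0.37, without overlap. A2m, the protease inhibitor alpha-2-macroglobulin, was the most uneven of the group, at 2.27, 0.33, −1.94 and −0.67 in low-Dbp livers 1, 2, 3 and 5. The second probe set of Serpina3n, an antichymotrypsin gene that differed by 1.5 at the brightest, gave −0.05.

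Apcs, serum amyloid P, and Lbp, which presents bacterial lipopolysaccharide to CD14, set the sets on either side of LAP-tTA. Lbp read 4.62, 4.82, 4.79 and 4.90 in low-Dbp livers, 2.84, 2.14 and 2.26 in high-Dbp livers, and 3.93 to 4.19 in LAP-tTA livers (median 4.04). Its low-Dbp livers differed from the LAP-tTA mean by 0.71, and its high-Dbp livers by −1.66. Apcs read 6.30, 6.35, 6.18 and 6.34 in low-Dbp livers, 3.85, 3.48 and 3.47 in high-Dbp livers, and 4.05 to 4.52 in LAP-tTA livers (median 4.24). Steap4, Lrg1, Serpina10, Itih3 and Cd14 were apart and higher by 1.71, 1.52, 1.16, 1.03 and 1.37. The most abundant plasma protein genes of the list moved less: haptoglobin (Hp) differed by 0.76, hemopexin (Hpx) by 0.59, C-reactive protein (Crp) by 0.93 and the fibrinogen chains Fga, Fgb and Fgg by 0.41, 0.50 and 0.36, each without overlap. Hamp, hepcidin, overlapped at −0.06, and Hamp2 was lower, at −0.72. None of 16 negative acute phase genes was apart (median −0.03), and 5 were higher (background 11%) and 3 lower (background 10.1%) without overlap. Among 22 complement genes 0 were apart, and 16 were higher (background 11%) and 2 lower (background 10.1%) without overlap, at a median of 0.34.

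Genes induced by cytokines differed in part. Of 26 measured, 8 were apart and higher (background 0.730%) and 0 lower (background 0.400%). Socs3, the feedback inhibitor of interleukin 6 signalling, read 0.22, 0.05, 0.03 and 0.88 in low-Dbp livers, −2.93, −2.31 and −2.25 in high-Dbp livers, and −3.08 to −1.29 in LAP-tTA livers (median −2.61), and low-Dbp livers lay above all others. Stat3, the transcription factor it restrains, was 1.16 higher. Icam1 and Vcam1, adhesion molecules for leukocytes, were 1.75 and 1.16 higher, and Il1r1, the interleukin 1 receptor, 1.43 higher. Nfkbiz and Tnfaip3, regulators of NF-kB, were higher by 1.66 and 1.28, and Junb by 1.65. The cytokines themselves overlapped between the sets: Il6 read −4.95, −4.70, −4.91 and −4.85 in low-Dbp livers, −5.07, −4.94 and −4.60 in high-Dbp livers, and −5.08 to −4.83 in LAP-tTA livers (median −4.98), and the differences were 0.02 for Il6, 0.01 for Tnf and 0.42 for Il1b. Il6 was dim, below the median intensity of every one of these arrays, so its overlap cannot show whether it differed. Among 21 chemokines 4 were apart and higher (background 0.730%). Cxcl1, a neutrophil attractant, read 4.28, 4.35, 4.46 and 4.90 in low-Dbp livers, 0.14, −0.30 and 0.34 in high-Dbp livers, and 0.67 to 1.70 in LAP-tTA livers (median 1.2), with high-Dbp livers below every LAP-tTA liver. Cxcl14, Ccl6 and Cxcl13 were higher by 2.56, 1.51 and 1.33, the last mainly in liver 5 at 0.09. None of 24 interferon response genes was apart (median 0.18). Without overlap at any fold, 8 of them were higher (background 11%) and 0 lower (background 10.1%).

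Some neutrophil and macrophage markers differed between the sets and others overlapped, and their part in the other differences was not tested. Of 16 neutrophil markers 5 were apart and higher (background 0.730%), namely Lcn2, S100a8, S100a9, Retnlg and Fpr2. Without overlap at any fold, 9 were higher (background 11%). The summed linear intensity of the list was 49.99 to 62.2 in low-Dbp livers, 2.3 to 2.5 in high-Dbp livers and 2.1 to 3.2 in LAP-tTA livers. Lcn2 alone made up 75.7% to 89.7% of the sum in low-Dbp livers, and without it the sum was 6.28 to 12.1 in low-Dbp livers, 2.08 to 2.14 in high-Dbp livers and 2.06 to 2.38 in LAP-tTA livers. Lcn2 is also made by hepatocytes and stands in the acute phase and iron lists too. S100a9, the partner of S100a8, read 0.95, 1.08, 2.10 and 1.23 in low-Dbp livers, −1.99, −2.34 and −2.08 in high-Dbp livers, and −2.61 to −1.56 in LAP-tTA livers (median −2.37), and Retnlg, a resistin-like neutrophil gene, −0.62, −0.35, 0.49 and 0.05 in low-Dbp livers, −2.89, −3.06 and −3.11 in high-Dbp livers, and −3.08 to −2.51 in LAP-tTA livers (median −2.75). Several granule and receptor genes of the list were dim and closer together, whereas the granule gene Prtn3, which is outside the list, differed by 6.97. Mpo, myeloperoxidase, read −3.85, −3.80, −3.84 and −4.25 in low-Dbp livers, −4.14, −4.10 and −4.39 in high-Dbp livers, and −4.43 to −3.90 in LAP-tTA livers (median −4.13), and Cxcr2, the receptor of Cxcl1, −5.09, −5.30, −4.79 and −4.88 in low-Dbp livers, −5.28, −5.21 and −5.01 in high-Dbp livers, and −5.55 to −5.07 in LAP-tTA livers (median −5.28). Camp and Ltf overlapped, at differences of 0.23 and 0.21, and Ngp reached −0.81 in low-Dbp liver 3 and at most −2.53 in high-Dbp livers.

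Of 18 Kupffer cell and macrophage markers 2 were apart and higher (background 0.730%) and 12 were higher without overlap (background 11%), at a median of 0.63. The summed linear intensity was 35.4 to 45.4, 23.4 to 25.2 and 22.0 to 29.7 in low-Dbp, high-Dbp and LAP-tTA livers. Mpeg1, a pore-forming protein of macrophages, read 2.18, 2.55, 2.26 and 2.05 in low-Dbp livers, 0.86, 0.72 and 0.83 in high-Dbp livers, and 0.73 to 1.32 in LAP-tTA livers (median 1.16), and Marco, a scavenger receptor, was 1.40 higher. C1qa, C1qb and C1qc were higher by 0.79, 0.82 and 0.85. Clec4f, which marks resident Kupffer cells, overlapped at 0.17, as did the monocyte genes Ly6c2 and Ccr2 at 0.20 and −0.05. None of the lymphocyte (16), platelet and erythroid (12), sinusoidal endothelial (14), stellate and matrix (16) or pancreas, adipose and muscle markers (11) was apart, and at the background of 0.730% and 0.400% lists of this length would hold few. Of 9 cholangiocyte and progenitor markers 1 was, Sox9, a duct and progenitor factor, at 1.05.

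**Figure D4:**
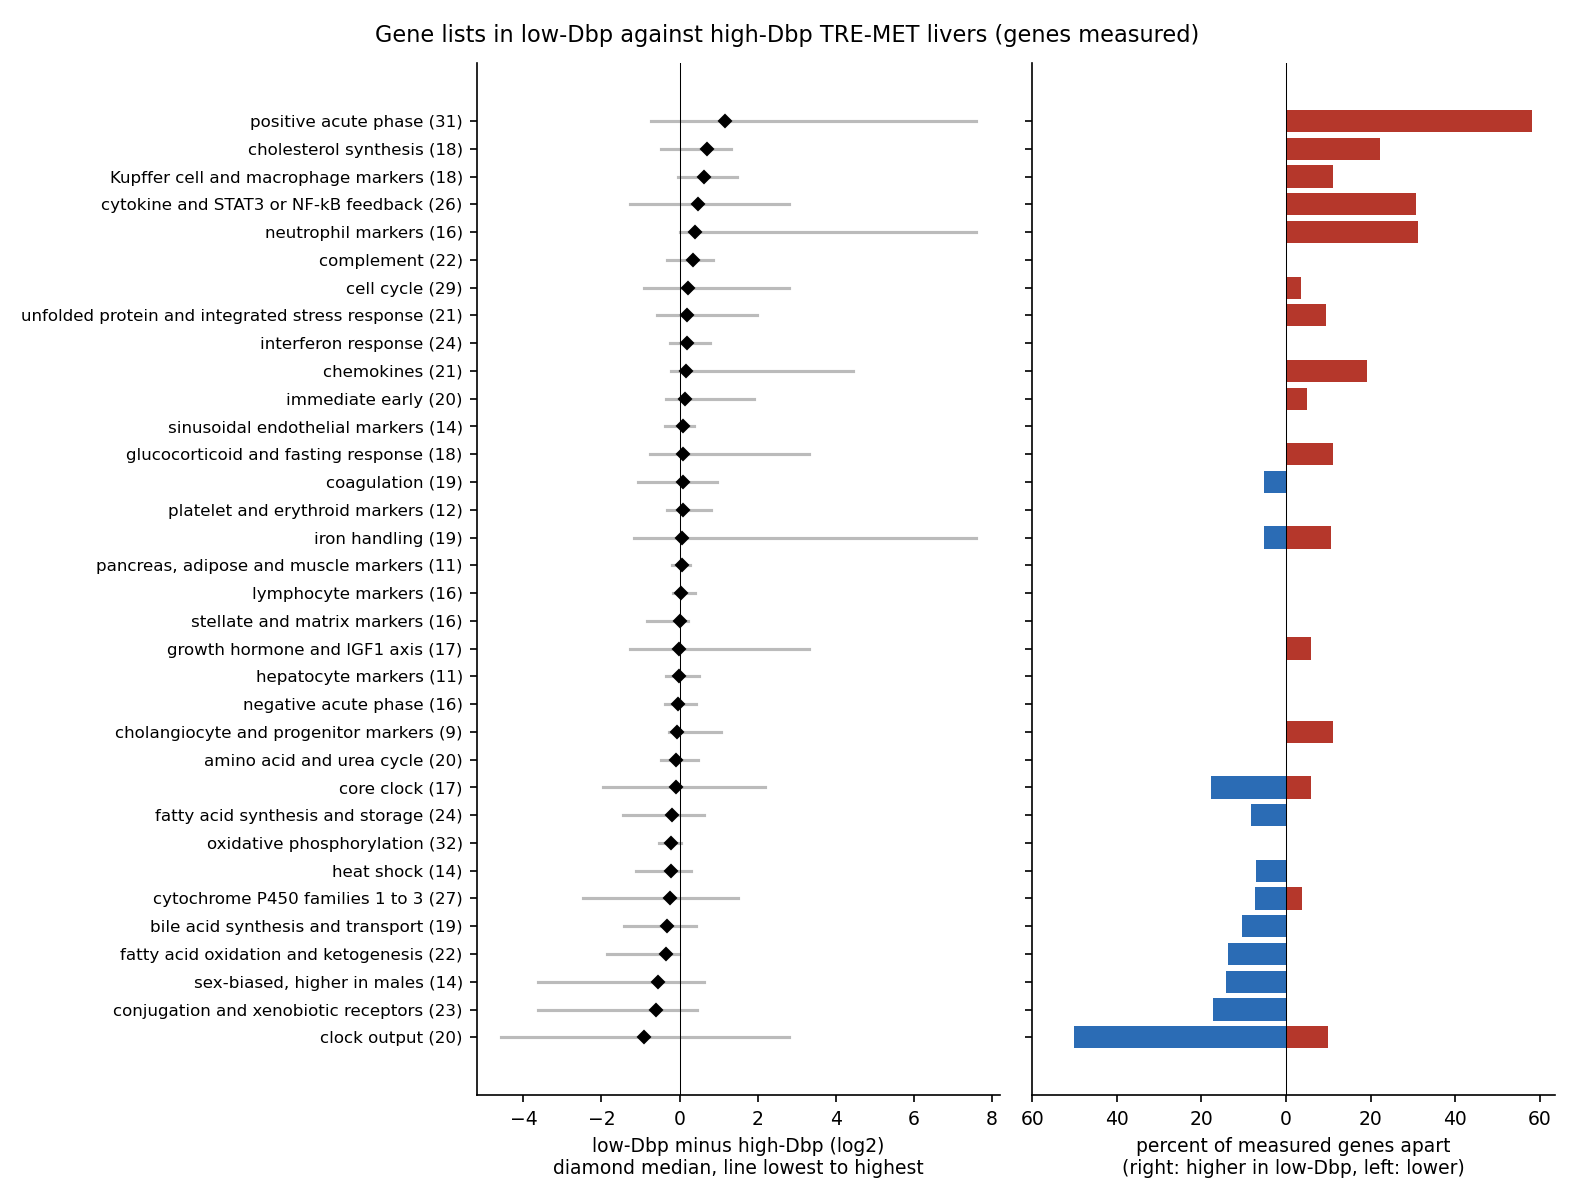
The 34 gene lists, with the number of measured genes, ordered by their median difference of low-Dbp minus high-Dbp livers. On the left the diamond is the median and the line runs over all members (log2); on the right, bars give the percent of members apart and higher (right of 0) or lower (left of 0) in low-Dbp livers. Positive acute phase genes have the highest median, 1.16, and clock output genes the lowest, −0.91.

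Genes of drug and steroid metabolism that were apart were mostly lower in low-Dbp livers. Of 23 conjugation and xenobiotic receptor genes 4 were apart and lower and 0 higher (background 0.400% and 0.730%), with a median of −0.60. Gsta2, a glutathione S-transferase, read −3.43, −2.90, −2.29 and −3.43 in low-Dbp livers, −0.91, 0.71 and 0.02 in high-Dbp livers, and 1.31 to 1.79 in LAP-tTA livers (median 1.57). Both sets lay below LAP-tTA, with differences of −4.57 for the low-Dbp and −1.62 for the high-Dbp set. Ugt2b1 and Sult1d1, a sulfotransferase, were lower, at differences of −1.2 and −1.25. Of 27 cytochrome P450 genes 2 were apart and lower (background 0.400%) and 1 was apart and higher (background 0.730%). Without overlap at any fold, 14 were lower (background 10.1%) and 3 higher (background 11%). Cyp2a4, a steroid hydroxylase, read 0.88, 0.54, 0.77 and 1.06 in low-Dbp livers, 3.74, 2.95 and 3.17 in high-Dbp livers, and 3.67 to 4.24 in LAP-tTA livers (median 4.01). Cyp3a13 went the other way and read 2.10, 2.17, 1.80 and 2.20 in low-Dbp livers, 0.75, 0.49 and 0.44 in high-Dbp livers, and 2.50 to 2.80 in LAP-tTA livers (median 2.6), with high-Dbp livers lowest and LAP-tTA livers highest. In the list of genes higher in male liver, 2 of 14 were apart and lower (background 0.400%). Without overlap at any fold, 12 were lower (background 10.1%) and 1 higher (background 11%). The median of this list was −0.55 between the sets, −0.13 for low-Dbp minus LAP-tTA and 0.57 for high-Dbp minus LAP-tTA.

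The fatty acid oxidation genes that were apart were all lower. Of 22, 3 were apart and lower (background 0.400%), and 17 were lower without overlap (background 10.1%). Acot1, an acyl-CoA thioesterase induced through PPAR-alpha, read −2.36, −2.89, −1.94 and −1.80 in low-Dbp livers, −0.70, −0.08 and −0.37 in high-Dbp livers, and 0.94 to 1.52 in LAP-tTA livers (median 1.07), and Acaa1b, a peroxisomal thiolase, 3.96, 3.60, 4.41 and 4.09 in low-Dbp livers, 5.56, 5.97 and 5.92 in high-Dbp livers, and 6.2 to 6.34 in LAP-tTA livers (median 6.29). Ehhadh, the peroxisomal bifunctional enzyme, differed by −1.13. In all 3 the high-Dbp livers also lay below LAP-tTA. Among 24 genes of fatty acid synthesis and storage, Me1, malic enzyme, and Thrsp, a lipogenic regulator, were apart and lower, at −1.26 and −1.45. For 32 oxidative phosphorylation genes the differences ran from −0.52 to 0.04, with 0 apart, 24 lower without overlap (background 10.1%) and 0 higher without overlap, at a median of −0.22.

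Cholesterol synthesis ran opposite. Of 18 genes 4 were apart and higher (background 0.730%) and 12 were higher without overlap (background 11%), with a median of 0.71. Sqle, squalene epoxidase, read 2.69, 3.22, 2.95 and 2.74 in low-Dbp livers, 0.70, 2.21 and 1.81 in high-Dbp livers, and 1.30 to 2.45 in LAP-tTA livers (median 2.04). High-Dbp liver 4 was the lowest of all 14 livers there, and low-Dbp livers lay above LAP-tTA. Fdps, Lss and Mvk, also enzymes of the pathway, were 1.21, 1.04 and 1.0 higher. Cyp7a1, the rate-limiting enzyme of bile acid synthesis, read −2.02, −1.2, −0.75 and −1.77 in low-Dbp livers, −0.61, 0.31 and 0.29 in high-Dbp livers, and 0.02 to 0.59 in LAP-tTA livers (median 0.25), and Slco1a4, an organic anion transporter, differed by −1.16.

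The stress lists held 1 or 2 genes apart each, beside a background of 0.730% higher and 0.400% lower. Of 21 genes of the unfolded protein and integrated stress response 2 were apart and higher: Asns, asparagine synthetase, was 1.98 higher and Chac1, a glutathione-degrading enzyme, 1.51. Of 18 glucocorticoid and fasting genes 2 were apart and higher. Igfbp1, a binding protein for insulin-like growth factors that rises in fasting, read 3.25, 3.0, 3.61 and 4.02 in low-Dbp livers, 0.03, 0.74 and −0.33 in high-Dbp livers, and −1.65 to 1.75 in LAP-tTA livers (median −0.31), and Zbtb16, a glucocorticoid target, was 1.98 higher. Zbtb16 differed by only 0.32 at its second probe set, without overlap. Gadd45g, an early response gene, was the 1 of 20 immediate early genes apart, at 1.90. In iron handling Slc39a14, a zinc and iron importer of the acute phase, was 1.04 higher and Id1, a target of BMP signalling, was lower, at −1.18, with high-Dbp livers 1.69 above LAP-tTA. None of 20 amino acid and urea cycle genes was apart, and 2 were higher (background 11%) and 8 lower (background 10.1%) without overlap. Hspa1b, a heat shock protein gene, was the 1 of 14 heat shock genes apart, at −1.11.

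Without TRE-MET liver 1, whose labels give 2 ages, 168 genes were apart and higher and 88 lower, and 237 were apart both with it and without it. The counts of positive acute phase (18 and 0), clock output (2 and 10), core clock (1 and 3) and neutrophil genes (5 and 0) stayed as they were, and for cholesterol synthesis genes the counts without it were 6 and 0.

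The only comparison between groups that the labels define at this age is that of all 7 TRE-MET with all 7 LAP-tTA livers, and the sets bear on it through the spread they give TRE-MET. By limma with Benjamini-Hochberg adjustment over 43681 probe sets, 929 genes rose (4.32% of 21517) and 1084 fell (5.04%) in TRE-MET livers at an adjusted p under 0.05. The tests measure the spread between animals within each label. Of these 2013 genes both sets lay beyond LAP-tTA on the same side at 951, only the low-Dbp set did at 620, only the high-Dbp set at 231, and both overlapped at 211. At 0 of them did the sets lie on opposite sides. Of the 243 genes apart between the sets, 91 were among the calls, all 33 with both sets on one side of LAP-tTA and 0 of the 37 with the sets on opposite sides. These counts by side follow largely from the test itself and are no separate result. Sets on opposite sides of LAP-tTA give a small mean difference and a wide spread within TRE-MET.

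Dbp, which alone set the split, did not pass, and Saa1, S100a8 and Lcn2 did not pass alike. Dbp differed by −1.65 in TRE-MET minus LAP-tTA (limma adjusted p = 0.242), with TRE-MET livers from −3.17 to 2.27, and Saa1 was 1.89 higher (adjusted p = 0.0757). S100a8 was 2.25 higher at an adjusted p of 0.0459, a call lost without any 1 of TRE-MET livers 1, 2, 3 and 5 or any 1 LAP-tTA liver, over a range of 0.00341 to 0.103 in 21 alternatives. Lcn2 was 4.81 higher at an adjusted p of 0.0235, which ran up to 0.0575 and was lost without TRE-MET livers 1, 2, 3 or 5 or LAP-tTA liver 6. Saa1 passed without TRE-MET liver 6 or 7 or LAP-tTA liver 5, at adjusted p values of 0.0251, 0.0346 and 0.0328. Of the genes apart between the sets, 7 that kept an adjusted p under 0.05 in all 21 alternatives follow, among which Ces2 missed the stricter 0.01. Orm3 rose by 2.50 (adjusted p = 0.00882), Cxcl14 by 1.84 (adjusted p = 0.00966) and Junb by 1.75 (adjusted p = 0.00111). Gsta2 fell by 3.31 (adjusted p = 0.000255), Ces2 fell by 3.01 (adjusted p = 0.0154), Acot1 fell by 2.59 (adjusted p = 2.834e-05) and Cyp2a4 fell by 2.07 (adjusted p = 0.00308). By list, beside 4.32% and 5.04% of all genes, 12 of 31 positive acute phase genes rose and 0 fell, 10 of 26 cytokine genes rose and 0 fell, 11 of 21 unfolded protein and integrated stress response genes rose and 0 fell, 0 of 24 interferon response genes rose and 11 fell, 0 of 22 fatty acid oxidation genes rose and 12 fell, and 3 of 17 core clock genes rose and 0 fell.

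The other groups of the series took no part in the split. No LAP-tTA, control, distant, adjacent or tumor sample, the last averaged by mouse, had Dbp, Saa1, S100a8 or Lcn2 within the range of the low-Dbp livers. At 14 weeks Dbp ran from 0.78 to 2.76 in distant liver, from 0.36 to 2.85 in adjacent liver, from −0.92 to 2.48 in tumors and from 0.22 to 2.91 in control livers, and 1 tumor mean was below 0. Control livers were also uneven in Dbp, at 2.67 and 2.91 in livers 1 and 2 and 0.22 to 0.73 in the rest. Arntl, at its brighter probe set, ran from −3.34 to −0.06 in control livers. Saa1 was 6.49 at the lowest in low-Dbp livers, and it reached 5.61 in distant liver, 5.81 in adjacent liver, 2.68 in tumors and 3.17 in control livers. S100a8 reached 0.22 in distant liver and −2.14 in control livers. Lcn2 was 5.24 in the lowest low-Dbp liver, and it ran from 3.67 to 4.84 in tumors and from −2.64 to 3.61 in distant liver. Of the other 7 genes read in these groups, Nr1d1 lay within the low-Dbp range in 3 distant livers, 1 adjacent liver and 1 tumor mean, Arntl at its brighter probe set in 1 adjacent and 1 control liver, and Ugt2b38 in 3 LAP-tTA livers, while Saa2, Orm2, Mt2 and Prtn3 did so in none.

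Within these groups Dbp was set against Saa1 and S100a8, 10 relations with n = 7 each, by two-sided exact permutation tests over every pairing. Distant liver, adjacent liver and tumors came from the same mice. None of the 10 passed. For Dbp with Saa1, Pearson r was 0.10 in LAP-tTA, −0.02 in distant liver, −0.19 in adjacent liver, 0.02 in tumors and −0.84 in control livers. The last had Spearman rho −0.50, exact permutation p = 0.0564 and 0.267, and adjusted values of 0.564 and 0.964. Without the 2 control livers farthest from the median in Dbp it was 0.04, so it rests on them. For Dbp with S100a8, r was 0.42 in LAP-tTA, 0.05 in distant liver, −0.03 in adjacent liver, −0.70 in tumors and 0.32 in control livers. In tumors rho was −0.43, with exact permutation p = 0.131 and 0.354 and adjusted values of 0.655 and 0.964, and r was −0.74 without the 2 farthest mice. Leaving out the 2 farthest samples also moved the others. For Dbp with Saa1 it gave −0.55 in LAP-tTA, 0.91 in distant liver, 0.23 in adjacent liver and 0.57 in tumors, and for Dbp with S100a8 −0.84 in LAP-tTA, −0.18 in distant liver, −0.72 in adjacent liver and −0.13 in control livers. The 7 samples in a group limit what these tests can detect.

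**Figure D5:**
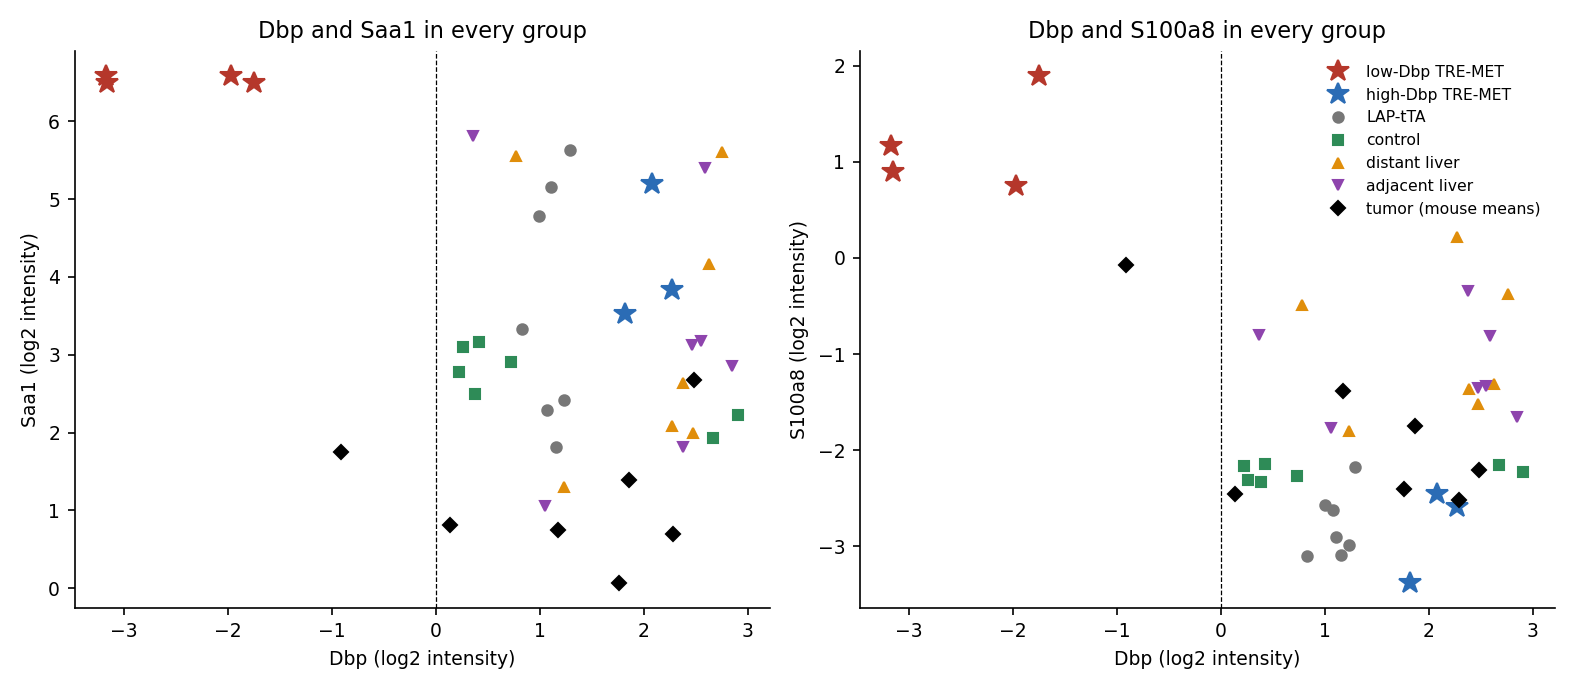
Log2 intensity of Saa1 (left) and S100a8 (right) on the vertical axis against that of Dbp on the horizontal axis; stars are low-Dbp and high-Dbp TRE-MET livers, other symbols are the 7 samples of each other group (tumors as means of both tumors of a mouse), and the dashed line marks Dbp at 0. The 4 low-Dbp livers stand alone at the upper left of both panels, and 1 other point, a tumor mean, lies left of the line.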

How the data were processed

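RMA was run by the authors over the 49 arrays, in a version not given in the sources used here. The deposited table holds linear intensities that averaged 1.0 in every sample. The step to that scale, the time of day of collection and array batches are likewise unstated. Intensities were converted to log2 as they stood, without an offset or a filter on dim probe sets. Of 43681 probe sets 30342 had 1 gene symbol and 13339 none, 6202 symbols were updated through synonyms in a GRCm38.p6 gene table, and each of 21517 genes was read at the probe set with the highest mean over 49 samples. Dbp had 1 probe set.

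TRE-MET liver 1 stayed with its title. Samples with the same number in TRE-MET and LAP-tTA are different animals, and their deviations from group means correlated at −0.0027 to 0.0925, so numbers did not pair them. TRE-MET was compared with LAP-tTA by two-sided limma tests (version 3.58.1, R 4.3.3) with Benjamini-Hochberg adjustment, checked on simulated data. Other steps used Python 3.11.15, numpy 2.4.6, pandas 2.3.3, scipy 1.17.1 and matplotlib 3.10.9. The number of arrays limits the precision.

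The livers and the 34 gene lists, some of which share genes, were chosen with earlier results of these data known. Named genes were Dbp, Saa1 and S100a8, the 12 largest differences in each direction among genes whose sets do not overlap, the 4 largest in each list, and any core clock, positive acute phase or neutrophil gene. Others, namely Met, Eif2s3y, Xist, C1qa to C1qc, Clec4f, Ly6c2, Ccr2 and any gene not covered by that rule, were named after their values were seen. Alternatives were quantile normalization, median centring, a filter on dim probe sets, other folds, thresholds, probe sets and splits, array weights, a replicate block, all groups in one fit, the methods' ANOVA, and each liver left out.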

Additional observations from a re-analysis of the deposited data

Results flagged for a closer look

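In 288 sets of 7 samples, from 136 named genes, 14 held 1 sample far from the other 6, by Dixon's criterion, which chance meets in about 1 of 20 sets. The number flagged was about that share, so the flags are listed as values only. Of these, 4 were in TRE-MET livers. Cxcl13, which draws B cells, was highest in low-Dbp liver 5 at 0.0924 (log2), with the other 6 at −3.45 to −2.11. Ngp, a neutrophil granule gene, was highest in low-Dbp liver 3 at −0.810, with the other 6 at −3.05 to −2.48. In high-Dbp liver 7, Clock was lowest at 0.897 (others 1.09 to 1.21), and so was Ly6c2 at −3.94 (others −3.58 to −3.40). Each flagged value lay away from its own set as well as from the other set.

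In LAP-tTA livers 10 genes had such a sample. Ciart was highest in liver 5 at −1.93 (others −3.30 to −2.85) and Socs3 in liver 7 at −1.29 (others −3.08 to −2.51), and only through these livers did the LAP-tTA range reach the high-Dbp livers in Ciart and exceed them in Socs3. Wee1 was highest in liver 6 at −0.489 (others −0.897 to −0.748), Serpina10 in liver 7 at 4.49 (others 4.36 to 4.40), Ugt2b1 in liver 5 at 5.05 (others 4.90 to 4.96) and Xist in liver 6 at −4.69 (others −5.13 to −4.96). Gys2 and Chac1 were lowest in liver 4 at 1.78 (others 1.93 to 2.02) and −1.90 (others −1.48 to −1.24). Fpr2 was lowest in liver 3 at −2.13 (others −1.62 to −1.25) and 9130409I23Rik in liver 2 at 0.0674 (others 0.592 to 0.832).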

How the results depend on the processing

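At probe set level the 2 sets of TRE-MET livers were apart at 331 probe sets, low-Dbp livers differed from LAP-tTA at 520 and high-Dbp livers at 261, and limma called 2998 between TRE-MET and LAP-tTA. At 1.5-fold these 3 descriptive counts were 1078, 1462 and 699, and at 4-fold 68, 114 and 48. Leaving out 1 liver at a time, LAP-tTA livers included in the second and the third, gave 309 to 371, 504 to 550 and 258 to 280. Leaving out LAP-tTA livers there, and list counts without TRE-MET liver 1, Dbp or Lcn2, were choices made after seeing the data. Splitting at the largest gap of S100a8 gave the same livers, and splitting at that of Saa1 put liver 4 with livers 1, 2, 3 and 5 and gave 151. The choice of another Dbp probe set could not be run, since 1 exists. At an adjusted p under 0.01, limma called 1592. Leaving out 1 liver at a time gave 2370 to 3368, the replicate block, with numbers that mark different animals, 2725, and the methods' ANOVA 3948 at its threshold and 2436 after Benjamini-Hochberg. Saa1 passed with the replicate block. Median centring gave 1148 higher and 1772 lower calls, against 1425 and 1573. The sign turned at the second probe sets of Arntl (−0.022) and Serpina3n (−0.049), and in Dbp with Saa1 by Spearman rho in distant liver (0.36, r −0.02) and adjacent liver (0.036, r −0.19), with the cause not tested. Of 17 named genes apart with a second probe set, 15 kept their direction and 14 also did not overlap there. Signal over background is not given, which limits dim genes.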

Other observations

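Genes outside the lists, chosen after their values were seen, showed further plasma proteins and receptors that differed between the sets of TRE-MET livers. Fgl1, a fibrinogen-like protein that hepatocytes secrete, read 5.44, 5.42, 5.37 and 5.55 in low-Dbp livers, 2.94, 1.87 and 1.68 in high-Dbp livers, and 2.15 to 3.02 in LAP-tTA livers (median 2.38), and only the low-Dbp livers lay beyond LAP-tTA. Serpina7, thyroxine-binding globulin, read 1.61, 2.22, 2.05 and 1.54 in low-Dbp livers, −2.17, −0.82 and −1.51 in high-Dbp livers, and −1.84 to −0.29 in LAP-tTA livers (median −0.77), and Prg4, a secreted proteoglycan, differed by 3.19. Nnmt, nicotinamide N-methyltransferase, read 0.50, −0.34, −0.84 and −0.10 in low-Dbp livers, −2.91, −2.64 and −3.63 in high-Dbp livers, and −3.93 to −3.56 in LAP-tTA livers (median −3.70). Scara5, a ferritin receptor, differed by 2.77, and Slc41a2, a magnesium transporter, by 2.79. Lifr, a receptor of the interleukin 6 family, was lower, at 3.39, 3.12, 3.36 and 3.34 in low-Dbp livers, 4.34, 4.34 and 4.42 in high-Dbp livers, and 4.19 to 4.45 in LAP-tTA livers (median 4.22). Gas6, a ligand of receptors that clear dying cells, and Cyb561, a cytochrome of ascorbate recycling, lay on opposite sides of LAP-tTA. Gas6 read 2.31, 2.19, 2.0 and 2.20 in low-Dbp livers, −0.17, −0.08 and 0.29 in high-Dbp livers, and 1.04 to 1.66 in LAP-tTA livers (median 1.23), and Cyb561 0.02, 0.39, 0.40 and 0.09 in low-Dbp livers, −2.74, −3.25 and −2.38 in high-Dbp livers, and −1.06 to −0.51 in LAP-tTA livers (median −0.70).

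Fabp5 and Slc3a1 were higher in low-Dbp than in high-Dbp livers, with both sets above LAP-tTA. Fabp5, a fatty acid binding protein, stood 4.53 above LAP-tTA in low-Dbp and 1.73 in high-Dbp livers, and Slc3a1, a subunit of the cystine transporter, 4.58 and 1.97. Among the lower genes, Aldh3a2, a fatty aldehyde dehydrogenase, read 0.24, 0.08, 0.53 and 0.61 in low-Dbp livers, 2.23, 2.82 and 2.62 in high-Dbp livers, and 2.95 to 3.41 in LAP-tTA livers (median 3.14), and Ephx1, microsomal epoxide hydrolase, differed by −1.64 between the sets. Akr1c14, a hydroxysteroid dehydrogenase, lay on opposite sides of LAP-tTA and read 3.03, 2.59, 2.56 and 2.81 in low-Dbp livers, 4.35, 4.18 and 4.18 in high-Dbp livers, and 3.16 to 3.58 in LAP-tTA livers (median 3.38). Esr1, the estrogen receptor, was 1.28 higher in low-Dbp livers.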
